A study of Mus musculus with 4 samples.

Results

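Complement genes expressed by fibroblasts were described in mouse embryonic fibroblasts (MEF) with and without *Hmga2* and with and without TGFB1. The set consisted of 7 genes, *C1ra*, *C1s1*, *C4b*, *C3*, *Cfb*, *Serping1* and *Cd55*, listed by name with earlier results of these data known, out of 25909 genes to which a transcript of the deposited table could be assigned. Each gene was represented by the transcript with the longest gene body. All 7 had a mean of at least 10 reads over the libraries, as did 13627 of the named genes, and these 13627 served as the background.

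RNA-seq of total RNA was available for 4 libraries, 1 for each of *Hmga2*+/+ Ctrl, *Hmga2*+/+ TGFB1, *Hmga2*-/- Ctrl and *Hmga2*-/- TGFB1. All came from immortalized MEF of C57BL/6 embryos at embryonic day 15.5, prepared from the body that remains once head, limbs, tail and inner organs are taken off. All cultures were starved overnight in medium with 1% FCS. TGFB1 libraries were from cells then given recombinant human TGFB1 at 10 ng/ml during 24 h, and Ctrl libraries from cells given water. The cells had been immortalized with SV40, and how many lines or embryos stand behind each genotype is not given in the sources used here. With 1 library per group no difference has a replicate check, no p-value is given, and every 95% interval covers counting error only, so that it compares libraries and not conditions. The contrasts share libraries: each Ctrl library enters a TGFB1 contrast and a genotype contrast.

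Complement is a cascade of plasma proteins that marks surfaces for removal and lyses cells. In the classical pathway the proteases C1r and C1s are bound to C1q, and C1s cleaves C4 and C2, which form the enzyme that cleaves C3. The alternative pathway builds its own C3-cleaving enzyme from C3 and factor B. C1 inhibitor, the product of *Serping1*, blocks C1r and C1s, and CD55 on the cell membrane speeds the decay of the C3-cleaving enzymes. The liver makes most of the circulating components, and fibroblasts are among the other cells known to make some of them.

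Levels are in RPKM, read numbers scaled to transcript length and sequencing depth. The deleted gene *Hmga2* was at 14.8 RPKM in Ctrl and 40.7 RPKM in TGFB1 when present, and neither knockout library held a read of it (0 reads). *Ccn2*, a TGFB1 target also known as *Ctgf*, had 13.2, 172.7, 24.9 and 358.9 RPKM in the order of libraries given above. Depth was nearly equal, at 56140000, 57300000, 56610000 and 56940000 mapped reads in the same order, and 3 reads on a transcript of 1 kb correspond to between 0.0524 and 0.0534 RPKM. Fibroblast markers summed to between 1875 and 2264 RPKM, with 8 of 9 at a mean of at least 1 RPKM, mostly *Vim* and collagens. None of 5 hepatocyte markers had a read in any library. Macrophage markers summed to between 2.28 and 2.49 RPKM over 7 genes, with 1 at a mean of at least 1 RPKM. That was *Cd68*, with 1.628, 1.271, 1.515 and 1.25 RPKM in the order of libraries given above. *Cd14* had 0.494, 0.884, 0.671 and 0.911 RPKM and *Lyz2* 0.339, 0.083, 0.135 and 0.1 RPKM. *Tyrobp* was at 0 in every library, *Csf1r* at no more than 0.041, *Ptprc* at no more than 0.007 and *Adgre1* at no more than 0.006 RPKM. Muscle markers summed to no more than 0.052 RPKM over 4 genes. In bulk RNA fewer cells of a type and less RNA per cell cannot be told apart.

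The sequences just before the transcription start are shown for the C3 gene, for *C1s1* and for *Cd55*, since the first 2 had matches to the binding motif of C/EBP factors, which are known to act on acute phase promoters, and the last had none. RefSeq (GRCm38.p6) held a start for 4 of the 7 genes. Each sequence is the 250 bases before the start, 5′ to 3′ on the strand of the gene, with matches to TTNNGNAA on either strand in capitals. They lie at chr17:57228137-57228386, chr6:124542360-124542609 and chr1:130462745-130462994, all on the minus strand.
*C3*: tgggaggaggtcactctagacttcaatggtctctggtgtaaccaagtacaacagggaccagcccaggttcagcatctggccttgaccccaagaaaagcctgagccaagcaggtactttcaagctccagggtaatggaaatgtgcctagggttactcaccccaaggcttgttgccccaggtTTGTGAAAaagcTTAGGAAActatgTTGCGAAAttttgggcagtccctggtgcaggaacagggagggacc
*C1s1*: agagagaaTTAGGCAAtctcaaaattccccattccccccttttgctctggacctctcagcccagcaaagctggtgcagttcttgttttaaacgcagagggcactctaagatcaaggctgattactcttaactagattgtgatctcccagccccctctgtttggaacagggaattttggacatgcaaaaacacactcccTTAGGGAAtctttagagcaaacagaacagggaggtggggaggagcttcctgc
*Cd55*: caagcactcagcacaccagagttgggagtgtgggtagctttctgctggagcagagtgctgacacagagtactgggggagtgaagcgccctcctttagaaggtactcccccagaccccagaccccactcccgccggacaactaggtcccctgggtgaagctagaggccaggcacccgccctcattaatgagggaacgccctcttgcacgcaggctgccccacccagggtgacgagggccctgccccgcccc
In *C3* the matches lay at -70 to -63, -58 to -51 and -45 to -38, counted from the start, and the last of them reads as a match on both strands. In *C1s1* they lay at -242 to -235 and -52 to -45. RefSeq also held a second start of *C1s1*, at chr6:124542321, whose window held 1 match, at -90 to -83, so number and position depend on the start chosen. The corresponding window of *C1ra*, which the GENCODE annotation places largely within a first exon, held matches at -72 to -65 and -29 to -22. The same letters occurred in 36.8% of all 32851 RefSeq promoter windows of this length. E boxes (CANNTG), found in 66.2% of windows, occurred once in *C3* and at 3 positions in *C1ra*, 1 of them overlapping a C/EBP match, and in neither *C1s1* nor *Cd55*. None of the 4 genes had a match on either strand to TATAAA (12.4% of windows), the interferon motifs TTCNNNGAA (7.02%) and ISRE (2.98%), the AP-1 motif TGANTCA (6.75%), the SMAD motifs GTCTAGAC (0.167%) and CAGACA (17.1%) or the NF-kB motif (0.980%). G and C made up 64% of the *Cd55* window, against 48% for *C1s1* (50.4% at its second start), 49.6% for *C1ra*, 52% for *C3* and a median of 52.4% over all windows. A match is a run of letters and no evidence of binding. Promoters of *C4b*, *Cfb* and *Serping1* were not analysed here.

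Levels per length spanned a wide range within 1 library. In *Hmga2*+/+ Ctrl MEF the proteases led, with *C1s1* at 31.6 RPKM and *C1ra* at 22.5 RPKM, above 92.1% and 87.3% of the background genes. *Cd55* at 12.7 RPKM, *Serping1* at 7.48 RPKM and *C4b* at 2.61 RPKM followed. *C3* and *Cfb*, at 0.225 and 0.217 RPKM, were at the bottom and rested on 64 and 33 reads, and their intervals overlapped. In *Hmga2*-/- Ctrl MEF *Cd55* was first at 37.9 RPKM, above 93.9% of genes, ahead of *C1s1* at 26.2 and *C1ra* at 22.8 RPKM, and no neighbours in the order had overlapping intervals. Under TGFB1 the intervals of *C1s1* and *C1ra* overlapped in both genotypes. Those of *C4b* and *Serping1* and of *Cfb* and *C3* overlapped in *Hmga2*+/+, and those of *C4b* and *Cfb* in *Hmga2*-/- MEF.

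**Figure D1:**
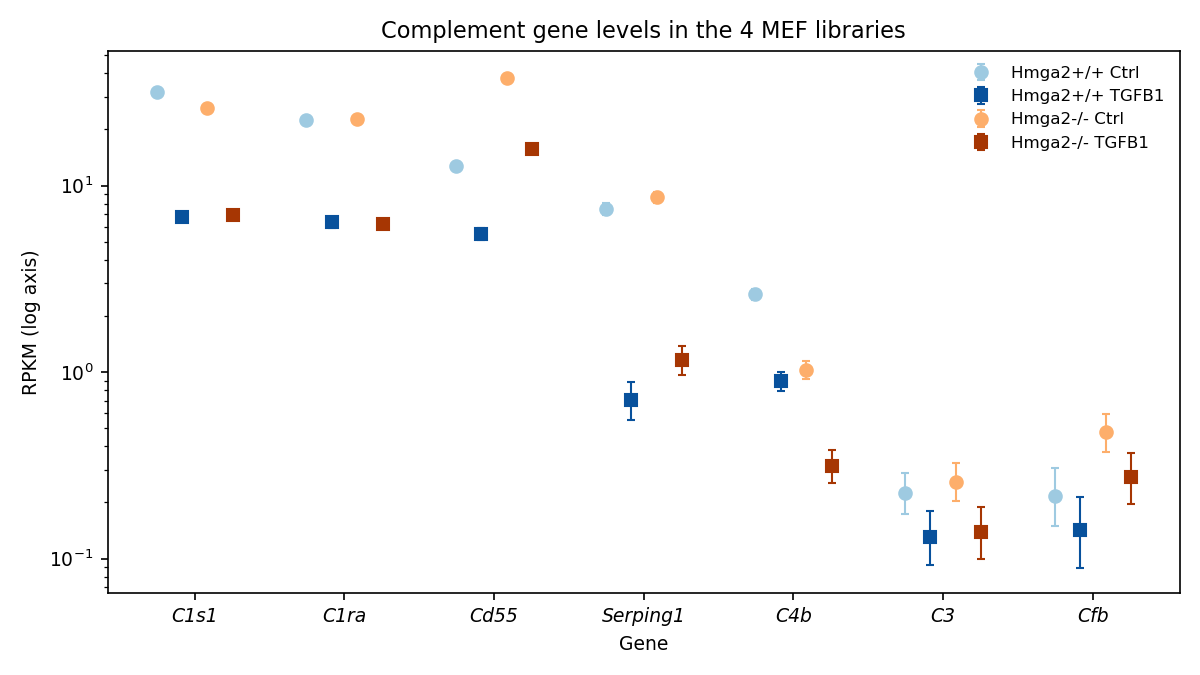
RPKM (log axis) of the 7 complement genes in the 4 libraries, 1 point per library, with bars for the 95% counting interval. Every TGFB1 point lies below the Ctrl point of its genotype, and *Cd55* and *C4b* are the genes whose genotypes lie farthest apart, *Cd55* at 12.7 against 37.9 RPKM and *C4b* at 2.61 against 1.03 RPKM in Ctrl.

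The first question was how the 7 genes respond to TGFB1. In both genotypes 7 of 7 were at least 1.5-fold lower in the TGFB1 than in the Ctrl library, and 0 were 1.5-fold higher. Among all background genes 21.9% were at least 1.5-fold lower and 12.5% higher in *Hmga2*+/+, and 20.5% were lower and 14% higher in *Hmga2*-/- MEF. The median log2 change of the 7 was -1.55 in *Hmga2*+/+ and -1.71 in *Hmga2*-/- MEF, beside -0.09 and -0.03 over the background. Not every member was far past the threshold: *Cfb* in *Hmga2*+/+ MEF was 1.53-fold lower, and with libraries rescaled by their median ratio 6 of 7 passed. With a pseudocount of 0.1 RPKM, which shrinks ratios of weak genes, 5 of 7 passed in *Hmga2*+/+ and 6 of 7 in *Hmga2*-/- MEF.

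Markers of cell types also moved with TGFB1. Of the fibroblast markers, *Pdgfra* had 24.4 RPKM in *Hmga2*+/+ Ctrl, 11.2 in *Hmga2*+/+ TGFB1, 27.1 in *Hmga2*-/- Ctrl and 15.3 in *Hmga2*-/- TGFB1 MEF. In the same order *Dcn* had 7.20, 2.68, 8.46 and 2.07 RPKM, *Lum* 1.08, 0.363, 0.708 and 0.246 RPKM and *Col3a1* 286.9, 176.2, 236.8 and 141.1 RPKM. These 4 were lower with TGFB1 in both genotypes. *Thy1* was higher in both, with 5.31, 8.55, 4.11 and 8.88 RPKM. So were *Pdgfrb*, with 36.1, 48.3, 31.5 and 49.9 RPKM, and *Col1a1*, with 325.3, 362.9, 272.4 and 362.9 RPKM. *Col1a2* and *Vim* went in opposite directions between genotypes. Of the endothelial markers *Kdr* was higher, with 1.11, 4.46, 1.46 and 7.39 RPKM, and *Tek* lower, with 2.75, 0.330, 5.65 and 0.686 RPKM. Their part in the lower levels of the complement genes was not tested.

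*C1ra* and *C1s1* encode the proteases that start the classical pathway, and lie 6903 bases apart on chromosome 6, end to end on opposite strands (*C1ra*, chr6:124512621-124523440, plus strand; *C1s1*, chr6:124530344-124542359, minus strand; mm10). *C1s1* had 31.6 RPKM in *Hmga2*+/+ Ctrl, 6.81 in *Hmga2*+/+ TGFB1, 26.2 in *Hmga2*-/- Ctrl and 6.94 in *Hmga2*-/- TGFB1 MEF. *C1ra* had 22.5, 6.34, 22.8 and 6.20 RPKM in the same order. For both genes the TGFB1 libraries were close to each other and far below the Ctrl libraries. The log2 change of *C1s1* with TGFB1 was -2.21 (95% interval -2.31 to -2.12), a 4.64-fold lower level, in *Hmga2*+/+ and -1.92 (-2.01 to -1.82), or 3.77-fold, in *Hmga2*-/- MEF. That of *C1ra* was -1.83 (-1.93 to -1.73) and -1.88 (-1.98 to -1.77). Between genotypes *C1ra* differed by 0.01 (-0.05 to 0.08) in Ctrl and by -0.03 (-0.16 to 0.10) under TGFB1 on the log2 scale, so no difference was detectable at this depth. *C1s1* was 1.21-fold lower in *Hmga2*-/- than in *Hmga2*+/+ Ctrl MEF, a log2 difference of -0.27 (-0.33 to -0.21) that is under the 1.5-fold threshold, and differed by 0.03 (-0.09 to 0.15) under TGFB1. The ratio of the RPKM of *C1ra* to those of *C1s1* was 0.713, 0.932, 0.869 and 0.893 in the 4 libraries. Of the members, these 2 had the most alike pattern over the libraries, with a Euclidean distance of 0.295 between centred log2 values.

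*Serping1* (chr2:84765360-84775429, minus strand), whose product C1 inhibitor inactivates C1r and C1s, had the largest TGFB1 change of the 7. It had 7.48 RPKM in *Hmga2*+/+ Ctrl, 0.706 in *Hmga2*+/+ TGFB1, 8.63 in *Hmga2*-/- Ctrl and 1.16 in *Hmga2*-/- TGFB1 MEF, from 758, 73, 882 and 119 reads. The level was 10.6-fold lower with TGFB1 in *Hmga2*+/+ MEF, a log2 change of -3.41 (-3.77 to -3.06), and 41 of the 13627 background genes (0.301%) were as low. In *Hmga2*-/- MEF it was 7.45-fold lower, a log2 change of -2.90 (-3.19 to -2.62), which 111 genes (0.815%) reached. Under TGFB1 it was 1.64-fold higher in *Hmga2*-/- than in *Hmga2*+/+ MEF, a log2 difference of 0.71 (0.28 to 1.15), and in Ctrl the difference was 0.21 (0.06 to 0.35). The RNA of the inhibitor was thus lower by more than that of its target proteases, and protein was not measured. The summed RPKM of *C1ra* and *C1s1* divided by the RPKM of *Serping1* went from 7.23 to 18.6 with TGFB1 in *Hmga2*+/+ and from 5.67 to 11.3 in *Hmga2*-/- MEF. That sum was 54.1 and 48.9 RPKM in the Ctrl libraries and 13.1 RPKM in each TGFB1 library.

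*C4b* (chr17:34728381-34743897, minus strand) encodes C4, the first substrate of C1s, and was the single member whose level was lower in *Hmga2*-/- MEF past the threshold. It had 2.61 RPKM in *Hmga2*+/+ Ctrl, 0.894 in *Hmga2*+/+ TGFB1, 1.03 in *Hmga2*-/- Ctrl and 0.314 in *Hmga2*-/- TGFB1 MEF, from 778, 272, 309 and 95 reads. The *Hmga2*-/- Ctrl library was thus near the *Hmga2*+/+ TGFB1 library, and the *Hmga2*-/- TGFB1 library was the lowest. The genotype difference was -1.34 (-1.54 to -1.15) on the log2 scale in Ctrl, or 2.54-fold, and -1.51 (-1.86 to -1.17), or 2.85-fold, under TGFB1, and 93 genes (0.682%) and 105 genes (0.771%) were as low. With TGFB1 it was lower by 2.92-fold in *Hmga2*+/+ and by 3.27-fold in *Hmga2*-/- MEF, log2 changes of -1.55 (-1.75 to -1.34) and -1.71 (-2.06 to -1.37).

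*C3* (chr17:57203967-57228136, minus strand), the component on which all pathways meet, had 0.225 RPKM in *Hmga2*+/+ Ctrl, 0.131 in *Hmga2*+/+ TGFB1, 0.258 in *Hmga2*-/- Ctrl and 0.139 in *Hmga2*-/- TGFB1 MEF. These values rest on 64, 38, 74 and 40 reads. The log2 change with TGFB1 was -0.78 (-1.40 to -0.18) in *Hmga2*+/+ and -0.89 (-1.49 to -0.32) in *Hmga2*-/- MEF. No genotype difference was detectable at this depth, with 0.20 (-0.30 to 0.70) in Ctrl and 0.09 (-0.59 to 0.76) under TGFB1. *Cfb* (chr17:34856374-34862514, minus strand), which encodes factor B of the alternative pathway, lies 112476 bases from *C4b* and 87 bases from *C2* on the same strand. It had 0.217 RPKM in *Hmga2*+/+ Ctrl, 0.142 in *Hmga2*+/+ TGFB1, 0.475 in *Hmga2*-/- Ctrl and 0.272 in *Hmga2*-/- TGFB1 MEF, from 33, 22, 73 and 42 reads. Both *Hmga2*-/- libraries were thus above both *Hmga2*+/+ libraries, with overlapping intervals for the nearest pair. *Cfb* was 2.19-fold higher in *Hmga2*-/- than in *Hmga2*+/+ MEF in Ctrl, a log2 difference of 1.13 (0.52 to 1.77), and 1.92-fold higher under TGFB1, 0.94 (0.16 to 1.76). Its change with TGFB1 was -0.61 (-1.46 to 0.21) in *Hmga2*+/+ MEF, where the interval includes 0, and -0.80 (-1.39 to -0.24) in *Hmga2*-/- MEF.

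*Cd55* (chr1:130439026-130462744, minus strand), which encodes decay-accelerating factor, was the member with the largest genotype difference. It had 12.7 RPKM in *Hmga2*+/+ Ctrl, 5.49 in *Hmga2*+/+ TGFB1, 37.9 in *Hmga2*-/- Ctrl and 15.7 in *Hmga2*-/- TGFB1 MEF, from 1788, 791, 5401 and 2253 reads. Even with TGFB1 the *Hmga2*-/- library was above the *Hmga2*+/+ Ctrl library. The level in *Hmga2*-/- MEF was higher than in *Hmga2*+/+ MEF by 1.58 (1.51 to 1.66) on the log2 scale in Ctrl and by 1.52 (1.40 to 1.64), or 2.87-fold, under TGFB1, and 68 genes (0.499%) and 78 genes (0.572%) were as high. Its log2 change with TGFB1 was -1.21 (-1.33 to -1.08) in *Hmga2*+/+ and -1.27 (-1.34 to -1.20) in *Hmga2*-/- MEF. The table holds 2 further transcripts of *Cd55*. The one with 1566 bases of exon had 7.58, 2.91, 19.3 and 8.44 RPKM, and the one with 1454 bases had 1.86, 0.564, 4.40 and 1.70 RPKM, so that all 3 were higher in the *Hmga2*-/- library of either treatment. Both lie within the span of the transcript used, on the same strand, so they can share reads with it and are not independent of it.

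The second question was which members differ between genotypes. In Ctrl 1 of 7 was at least 1.5-fold lower in *Hmga2*-/- than in *Hmga2*+/+ MEF (*C4b*) and 2 were higher (*Cfb* and *Cd55*), where 4.68% and 4.98% of the background genes were lower and higher. Under TGFB1 1 of 7 was lower (*C4b*) and 3 were higher (*Cfb*, *Serping1* and *Cd55*), where 5.06% and 6.25% of genes were. The median log2 difference of the 7 was 0.20 in Ctrl and 0.09 under TGFB1, beside -0.02 and 0.04 over the background. Some markers of cell types moved with genotype. Among the fibroblast markers *Vim*, *Pdgfra* and *Dcn* were higher in *Hmga2*-/- than in *Hmga2*+/+ Ctrl MEF, and the others were lower. *Vim* had 957.7 RPKM in *Hmga2*+/+ and 1496.9 RPKM in *Hmga2*-/- Ctrl MEF. The 5 epithelial markers summed to 2.62 and 2.96 RPKM in *Hmga2*+/+ Ctrl and TGFB1 and to 5.33 and 5.77 RPKM in *Hmga2*-/- MEF, mostly *Krt19*. *Epcam* went the other way, with 0.209 and 0.667 RPKM in *Hmga2*+/+ Ctrl and TGFB1 and 0.121 and 0.284 RPKM in *Hmga2*-/- MEF. *Krt18* was lower in *Hmga2*-/- MEF in Ctrl, at 0.178 against 0.424 RPKM, and higher under TGFB1, at 0.317 against 0.252 RPKM. The 4 endothelial markers summed to 3.89 and 4.86 RPKM in *Hmga2*+/+ and to 7.12 and 8.14 RPKM in *Hmga2*-/- MEF, from *Kdr* and *Tek*, which moved in opposite directions with TGFB1, with *Pecam1* and *Cdh5* at no more than 0.048 RPKM. Their part in the genotype differences was not tested.

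The third question was whether the response to TGFB1 differed between genotypes. The log2 change in *Hmga2*-/- minus that in *Hmga2*+/+ MEF was 0.51 (0.06 to 0.95) for *Serping1* and 0.30 (0.17 to 0.43) for *C1s1*, so both were lower with TGFB1 by less in *Hmga2*-/- MEF in these libraries. For the other 5 members the interval included 0. It was -0.06 (-0.20 to 0.08) for *Cd55*, -0.05 (-0.19 to 0.10) for *C1ra* and -0.17 (-0.55 to 0.22) for *C4b*. It was widest for the weak genes, with -0.11 (-0.91 to 0.69) for *C3* and -0.19 (-1.14 to 0.76) for *Cfb*.

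**Figure D2:**
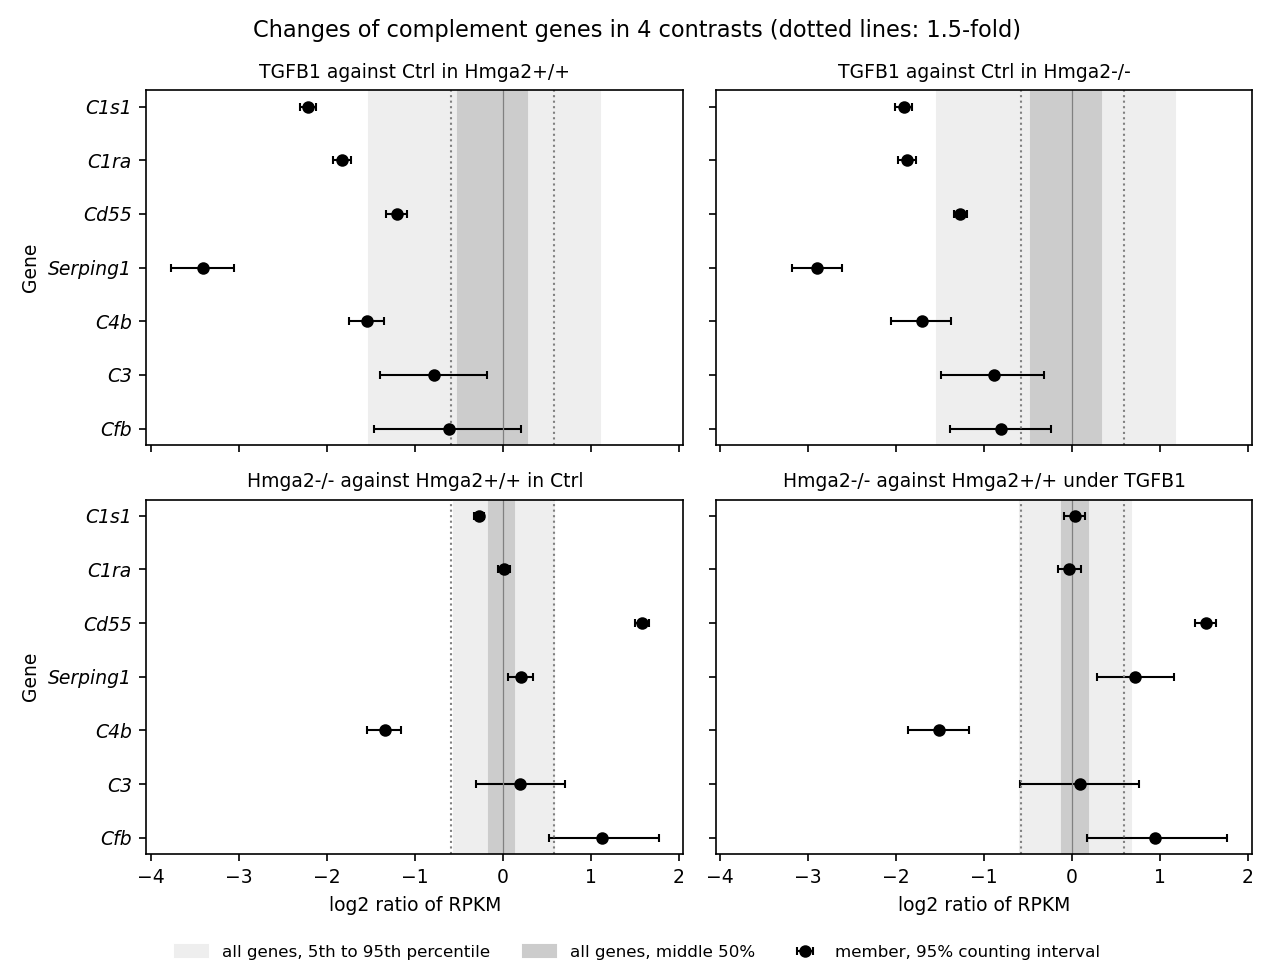
log2 ratio of RPKM for the 7 complement genes in the 4 contrasts, with bars for the 95% counting interval, over bands for the middle 50% and the 5th to 95th percentile of the 13627 background genes. With TGFB1 all 7 points are left of the 1.5-fold line in both genotypes, *Serping1* the farthest at -3.41 and -2.90, whereas between genotypes *C4b* lies to the left at -1.34 and -1.51 and *Cd55* to the right at 1.58 and 1.52.

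Close relatives in sequence could share reads with some members. Of all stretches of 70 bases in the annotated transcript, 43.9% of those of *C1ra* occur also in other genes, mostly *C1rb*, 25.5% of those of *C4b* in *C4a*, 16.3% of those of *C1s1* in *C1s2* and 10.1% of those of *Cd55* in *Cd55b*. *C3*, *Cfb* and *Serping1* had 0% such stretches. Annotated genes whose span overlaps that of the member on either strand were left out of this count, so sharing with them was not examined. How reads that map to several places were counted is not given in the sources used here. The relatives were near 0, with *C4a* at no more than 0.114 RPKM, *C1s2* at no more than 0.155, *C1rb* at no more than 0.091 and *Cd55b* at no more than 0.065 RPKM in any library. Reads of the members that were credited to a relative, or the reverse, cannot be told apart here.

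Other genes of the complement system were described from lists of 51 genes. Of these, 16 had a mean of at least 10 reads and 8 a mean of at least 1 RPKM, and 15 had 0 reads in all libraries. With TGFB1 8 of the 16 were at least 1.5-fold lower and 3 higher in *Hmga2*+/+ MEF, and 9 were lower and 2 higher in *Hmga2*-/- MEF, where the background shares were 21.9%, 12.5%, 20.5% and 14% in the same order. Among these calls the intervals of *Masp2* in *Hmga2*+/+ (15 against 10 reads) and of *Cd46* in *Hmga2*-/- MEF (17 against 9 reads) included 0. Between genotypes 3 were lower and 1 higher in *Hmga2*-/- MEF in Ctrl, and 4 were lower and 0 higher under TGFB1, where the background shares were 4.68%, 4.98%, 5.06% and 6.25%. Of these, the intervals included 0 for *Masp2* and *C4a* in Ctrl and for *C1rl*, *Cd46* and *Cd93* under TGFB1. The terminal pathway, whose proteins form the lytic pore, was all but silent: 5 of 7 genes had no read, and none had a mean of 10 reads.

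Among 19 genes of initiation, 7 had a mean of at least 10 reads, and 4 of these were at least 1.5-fold lower with TGFB1 in either genotype, while 1 was higher in *Hmga2*+/+ and 0 in *Hmga2*-/- MEF, beside background shares of 21.9% and 20.5% lower and 12.5% and 14% higher. *Colec12*, a scavenger receptor collectin, was the most abundant, with 90.7 RPKM in *Hmga2*+/+ Ctrl, 36.0 in *Hmga2*+/+ TGFB1, 80.7 in *Hmga2*-/- Ctrl and 31.7 in *Hmga2*-/- TGFB1 MEF, log2 changes of -1.33 and -1.35 with TGFB1. *Masp1*, a protease of the lectin pathway, went the other way, with 9.75, 16.6, 13.8 and 19.7 RPKM. Its log2 change with TGFB1 was 0.77 (0.68 to 0.86) in *Hmga2*+/+ and 0.51 (0.43 to 0.59) in *Hmga2*-/- MEF, which is under the threshold. *Cfp*, properdin of the alternative pathway, had 1.25, 1.13, 1.18 and 1.12 RPKM and passed in no contrast. The other 4 had means under 1 RPKM. *C1rl* and *C2* in both genotypes, *Masp2* in *Hmga2*+/+ and *C4a* in *Hmga2*-/- MEF were at least 1.5-fold lower with TGFB1, and the interval of *Masp2* included 0. C1q, which carries C1r and C1s, was at most 3 reads in any library for each of *C1qa*, *C1qb* and *C1qc*.

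Of 14 regulators 5 had a mean of at least 10 reads, and with TGFB1 3 of these were at least 1.5-fold lower in *Hmga2*+/+ and 4 in *Hmga2*-/- MEF, with 0 higher, beside background shares of 21.9% and 20.5% lower and 12.5% and 14% higher. *Clu*, clusterin, an inhibitor of the terminal complex, had 2.12 RPKM in *Hmga2*+/+ Ctrl, 0.632 in *Hmga2*+/+ TGFB1, 2.16 in *Hmga2*-/- Ctrl and 0.734 in *Hmga2*-/- TGFB1 MEF, log2 changes of -1.74 and -1.55 with TGFB1. *Cr1l*, a membrane regulator also known as Crry, had 3.57, 4.82, 3.52 and 4.72 RPKM, log2 changes of 0.43 and 0.42, below the threshold. Of the 11 receptors and binding proteins 4 had a mean of at least 10 reads, and 1 was lower and 2 were higher with TGFB1 in either genotype, beside the same shares. *C1qbp*, a mitochondrial protein that binds C1q, had 33.9, 59.6, 34.1 and 62.3 RPKM and was higher with TGFB1 by 0.81 and 0.87 on the log2 scale. *Calr*, calreticulin of the endoplasmic reticulum, had 637.2, 925.6, 734.7 and 1039 RPKM, log2 changes of 0.54 and 0.50.

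**Figure D3:**
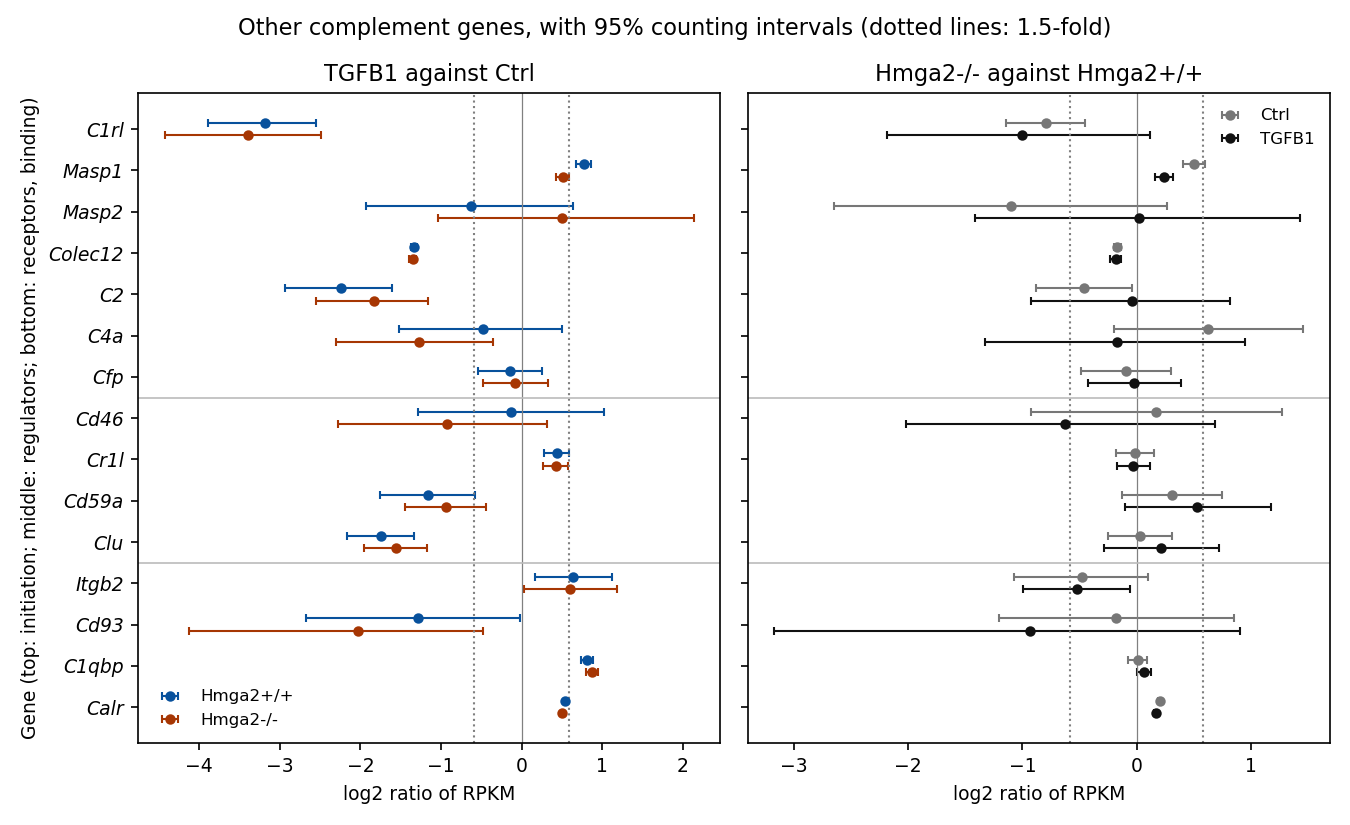
log2 ratio of RPKM for 15 of the 16 other complement genes with a mean of at least 10 reads, by role, with bars for the 95% counting interval; TGFB1 against Ctrl on the left, *Hmga2*-/- against *Hmga2*+/+ MEF on the right. Of the genes drawn, *C1rl* lies farthest to the left with TGFB1, at -3.18 in *Hmga2*+/+ and -3.39 in *Hmga2*-/- MEF, and *C1qbp* and *Masp1* lie to the right in *Hmga2*+/+ MEF, at 0.81 and 0.77.

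Acute phase genes, which are often induced along with complement in inflammation, went in both directions. Of 10 listed, 5 had a mean of at least 10 reads. With TGFB1 2 were at least 1.5-fold lower in either genotype (*Cp* and *Ptx3*), and 2 were higher in *Hmga2*+/+ and 3 in *Hmga2*-/- MEF, beside background shares of 21.9% and 20.5% lower and 12.5% and 14% higher. *Ptx3*, a long pentraxin that binds C1q, had 63.5 RPKM in *Hmga2*+/+ Ctrl, 36.6 in *Hmga2*+/+ TGFB1, 107.5 in *Hmga2*-/- Ctrl and 45.1 in *Hmga2*-/- TGFB1 MEF, log2 changes of -0.79 and -1.25. *Serpina3g*, a serine protease inhibitor, had 1.62, 7.67, 3.56 and 12.5 RPKM, and was higher with TGFB1 by 2.24 and 1.81.

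Of 14 genes for factors known to act on complement promoters and their receptors, 14 had a mean of at least 10 reads. With TGFB1 3 were at least 1.5-fold lower and 1 higher in *Hmga2*+/+ MEF, and 5 were lower and 2 higher in *Hmga2*-/- MEF, beside background shares of 21.9% and 12.5% and of 20.5% and 14%. *Cebpb*, which encodes a C/EBP factor, had 25.7 RPKM in *Hmga2*+/+ Ctrl, 38.8 in *Hmga2*+/+ TGFB1, 28.9 in *Hmga2*-/- Ctrl and 43.5 in *Hmga2*-/- TGFB1 MEF, log2 changes of 0.59 and 0.59. *Cebpd* had 6.95, 5.21, 9.01 and 5.05 RPKM, log2 changes of -0.42 and -0.84. *Irf1*, an interferon-response factor, had 13.1, 8.24, 15.3 and 8.02 RPKM, lower with TGFB1 by log2 changes of -0.67 and -0.93. *Stat3*, which carries interleukin-6 signals, did not reach the threshold, with log2 changes of -0.29 and -0.38. Between genotypes 0 were lower and 1 higher in Ctrl, and 1 was lower and 1 higher under TGFB1, where the background shares were 4.68%, 4.98%, 5.06% and 6.25%.

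Among 10314 protein-coding genes with a mean of at least 1 RPKM, those nearest to each member over the 4 libraries were named by the Euclidean distance between centred log2 values. With 4 points this likeness is a description. *Nrk*, *Mab21l2* and *Epha7* were nearest to *C4b*, and *Nrk*, at a distance of 0.195, had 3.16, 1.04, 1.46 and 0.408 RPKM. *F830016B08Rik*, *Zfp467* and *Phf11b* were nearest to *C1ra*, the first at 0.0771, and *Adgrg2*, *Fbxo2* and *Dixdc1* to *C1s1*, the first at 0.132. *Sfrp2*, which encodes a secreted modulator of Wnt signals, was nearest to *Serping1* at 0.256, with 130.0, 16.5, 177.5 and 21.5 RPKM, ahead of *Gstt1* and *Arhgap20*. *Dkk3*, at 0.276, *Gpc3*, at 0.288, and *Pcdhac2* were nearest to *Cd55*. *C3* and *Cfb* were below 1 RPKM and were not compared in this way.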

How the data were processed

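Strand-specific RNA-seq libraries of total RNA from 4 MEF cultures were analysed. Per the methods, the authors trimmed reads with Trimmomatic and mapped them to mm10 with HISAT2 2.1.0, and with HOMER deposited RPKM for 63759 UCSC known gene transcripts, 1 column per condition, rounded to 3 decimals. The methods speak of duplicates, and whether they were pooled is not given in the sources used here. The file header names exons as the counted feature where the methods name genes. The other column used, also from the deposited table, is the transcript length in bases. No per-sample column was left unused (0).

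Depth was derived as the number of mapped reads at which low RPKM of transcripts under 600 bases give whole reads. It was 56140000 for *Hmga2*+/+ Ctrl, 57300000 for *Hmga2*+/+ TGFB1, 56610000 for *Hmga2*-/- Ctrl and 56940000 for *Hmga2*-/- TGFB1. Of at least 1862 values tested per library, 100% lay within 0.1 of a whole read. Since values are RPKM with 1 library per group, no count test was run. Intervals (95%) are exact Poisson for levels, Clopper-Pearson for ratios and delta-method for differences of changes. As in the methods, values of 0 RPKM became 0.001 and the fold threshold was 1.5. Background genes had a mean of at least 10 reads.

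Gene symbols came from GENCODE vM21, by same-strand overlap over 50% or more of the transcript span, and 57708 transcripts received one. *C2* was named by its RefSeq span. The members and lists were chosen with earlier results of these data known. Genes named were the members, *Hmga2* and *Ccn2*, the markers, list genes with a mean of at least 1 RPKM, close relatives by sequence, and the 3 genes most like each member on the log2(RPKM + 0.1) scale. *C1rl*, *C2*, *Masp2*, *C1qa*, *C1qb*, *C1qc*, *Cd46*, *Cd93* and *Cp* were named after their values were seen, and not every gene that meets the rule is reported here, although the counts cover the whole lists. Motifs spelled in words were ISRE (GAAA, any 2 bases, GAAA) and NF-kB (GGGA, any base, TT, any base, CC). Protein sequences were not used here. Steps were tested on simulated data. Alternatives changed the pseudocount, scaling, threshold, filter and transcript per gene. Python 3.11.15, numpy 2.4.6, pandas 2.3.3, scipy 1.17.1 and matplotlib 3.10.9 were used.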

Additional observations from a re-analysis of the deposited data

Results flagged for a closer look

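In all, 3 receptor or signalling genes of the list of factors that act on complement promoters had log2 changes of opposite sign in the groups compared, each with a counting interval that left out 0. Other genes of the lists that changed sign had an interval that included 0 on at least 1 side and are not given. The differences were not tested, since each group is 1 library, and the share of background genes with such a pattern was not counted. *Il1r1*, the interleukin-1 receptor, changed with TGFB1 by 0.12 in *Hmga2*+/+ and by -0.28 in *Hmga2*-/- MEF. *Il6st*, the shared receptor chain gp130, differed between *Hmga2*-/- and *Hmga2*+/+ MEF by 0.22 in Ctrl and by -0.04 under TGFB1. The latter rests on 16861 and 17441 reads, where the counting interval is narrow (-0.07 to -0.01). *Nfkbia*, the inhibitor of NF-kB, differed between genotypes by -0.27 in Ctrl and by 0.28 under TGFB1. All these values are under the 1.5-fold threshold.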

How the results depend on the processing

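No paired analysis was possible because each group is 1 library and the labels carry no replicate number. Of 140 recomputed log2 changes of members, 123 moved by less than their counting interval and none changed sign. The other 17 moved under a pseudocount of 1 RPKM, which by construction shrinks ratios of weak genes. Under it the 7 had a median log2 change of -1.07 (*Hmga2*+/+) and -1.22 (*Hmga2*-/-) with TGFB1, and the difference of the TGFB1 response of *C4b* between genotypes was 0.30 in place of -0.17. That of *Serping1* was 0.16 in place of 0.51, and that of *C1s1* was 0.29 in place of 0.30.

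Members lower with TGFB1 numbered 7 in either genotype. In *Hmga2*+/+ MEF they were 6 with rescaled libraries and 5 under 2-fold, a mean of at least 1 RPKM or either pseudocount. In *Hmga2*-/- MEF they were 6 with a pseudocount of 0.1 RPKM and 5 under 2-fold, a mean of at least 1 RPKM or a pseudocount of 1 RPKM. The filter at a mean of 1 RPKM leaves out *C3* and *Cfb*. Every member it kept passed with TGFB1 in both genotypes, and *Cfb* does not enter its genotype counts. Members higher in *Hmga2*-/- MEF numbered 1 in Ctrl with a mean of at least 1 RPKM or a pseudocount of 1 RPKM, and 1 under TGFB1 at 2-fold or with that pseudocount, under which 0 were lower. Of the other complement genes, a pseudocount of 0.1 RPKM left 0 higher in *Hmga2*-/- Ctrl MEF, 1 higher with TGFB1 in *Hmga2*-/- MEF and 1 lower in *Hmga2*-/- TGFB1 MEF. A pseudocount of 1 RPKM left 0, 1 and 0 of these, 1 lower in *Hmga2*-/- Ctrl MEF, and 5 and 3 lower with TGFB1 in *Hmga2*+/+ and *Hmga2*-/- MEF.

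The shares of background genes lower and higher moved as follows. At 2-fold they were 10.8% and 5.86% with TGFB1 in *Hmga2*+/+ MEF, 10.9% and 6.59% in *Hmga2*-/- MEF, 1.67% and 1.89% between genotypes in Ctrl, and 2.06% and 2.16% under TGFB1. With a pseudocount of 1 RPKM they were 9.32% and 7.52%, 8.51% and 8.81%, 0.719% and 0.947%, and 0.624% and 1.30% in the same order. Between genotypes in Ctrl and under TGFB1 they were 1.93% and 2.23%, then 1.96% and 3.01%, with a mean of at least 1 RPKM. They were 8.82% and 8.47%, then 8.27% and 9.41%, with no filter, and 2.85% and 2.94%, then 2.64% and 3.82%, with a pseudocount of 0.1 RPKM.

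Depth limits *C3* and *Cfb* most, with at most 74 reads in a library. Spread between cultures was not measured, and the cause of the shifts above, beyond the construction of each alternative, was not tested.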
